A study of Mus musculus with 3 samples.

Results

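Core circadian clock genes were read in glomeruli, the capillary tufts that filter blood in the kidney. The members were chosen by gene symbol, as every probe set whose single gene in the platform annotation is Arntl (also called Bmal1), Clock, Npas2, Per1, Per2, Per3, Cry1, Cry2, Nr1d1 or Dbp. All 10 genes were represented, by 23 of the 34958 probe sets that carry a single gene symbol, out of 45101 on the array. The samples form 1 group of 3 nondiabetic male FVB/NJ mice, 8 weeks old, an inbred strain that the study set against diabetic OVE26 mice. OVE26 mice are not used here, and the values describe control glomeruli and the differences among these animals. The mice lived under a 12-hour light-dark cycle, and the sources used here give no time of day for tissue collection. RNA came from a pool of about 1000 glomeruli of each mouse and was measured on 1 Affymetrix array per mouse, so that a difference between mice and a difference between arrays cannot be told apart.

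The circadian clock of mammalian cells is a feedback loop of transcription. BMAL1, the product of Arntl, pairs with CLOCK or with its paralog NPAS2 and activates genes that carry E-box sequences, among them the Per and Cry genes, Nr1d1 and Dbp. PER and CRY proteins return to the nucleus and inhibit that activator, while REV-ERB alpha, the product of Nr1d1, represses Arntl through ROR response elements. DBP activates genes with D-box sequences, Per genes included. In many mouse tissues, the kidney among them, Arntl RNA peaks near the trough of Dbp RNA and the reverse.

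Values are log2 GCRMA expression values, so a difference of 1 is a 2-fold difference. Each array had a background floor, the 95th percentile of its 78 olfactory and vomeronasal receptor probe sets, which lay at 2.59, 2.92 and 2.86 in mice 1, 2 and 3. Of the 23 clock probe sets, 18 (9 genes) exceeded the floor in all mice, where 52.7% of all single-symbol probe sets did so. A further probe set exceeded it in 1 mouse, and 4 exceeded it in none. Values of different probe sets are not set against each other, since each has its own hybridisation efficiency. In whole glomeruli, fewer cells of a type and less RNA per cell cannot be told apart.

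**Figure D1:**
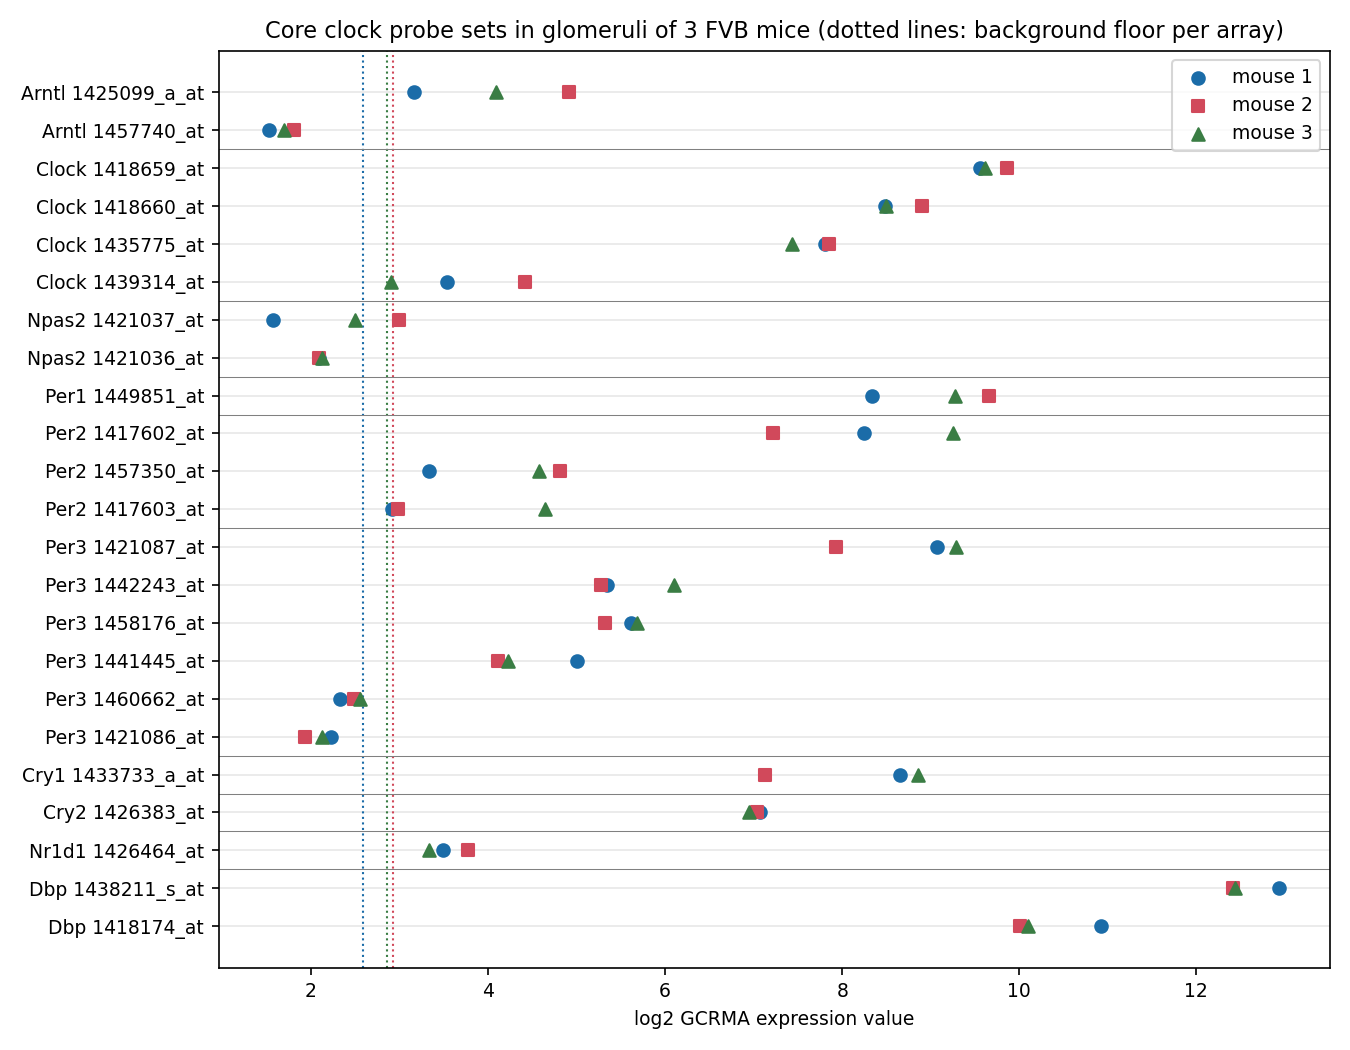
Expression of the 23 core clock probe sets (rows, grouped by gene) in the 3 FVB mice, with the log2 GCRMA value on the horizontal axis and 1 point per mouse. Dotted lines mark the background floor of each array (2.59, 2.92 and 2.86), and both Npas2 probe sets, 1 of Arntl and 2 of Per3 lie below it in at least 2 mice.

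Among the activators, Arntl differed most between mice. Its probe set 1425099_a_at had values of 3.16, 4.91 and 4.09 in mice 1, 2 and 3, a mean of 4.05 ± 0.87 (SD, n = 3). It was lowest in mouse 1 and highest in mouse 2, a 3.36-fold range, and lay 0.57, 1.98 and 1.23 above the floor in mice 1, 2 and 3. Arntl is thus read close to background in mouse 1. The other Arntl probe set, 1457740_at, was below the floor on every array, with values of 1.53, 1.80 and 1.69.

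Clock, which encodes the partner of BMAL1, was read by 4 probe sets, and all 4 were highest in mouse 2. The most intense, 1418659_at, had values of 9.56, 9.86 and 9.61 in mice 1, 2 and 3, and 1418660_at had values of 8.48, 8.90 and 8.50. Their ranges were 1.23-fold and 1.33-fold. Probe set 1435775_at (7.81, 7.85 and 7.44) had a like range, with mouse 3 lowest. The dimmest, 1439314_at, had values of 3.54, 4.42 and 2.91 and a 2.85-fold range, with mouse 3 only 0.04 above the floor. Npas2 was not measured above background in all mice: 1421037_at had values of 1.57, 2.99 and 2.50 and passed the floor in mouse 2 alone, by 0.06, and 1421036_at had values of 2.09, 2.09 and 2.12.

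The Per genes, whose proteins inhibit the activator, did not share 1 order of the mice. Per1, which responds quickly to hormones and other stimuli, had values of 8.34, 9.66 and 9.27 in mice 1, 2 and 3. As for Arntl, mouse 1 was lowest and mouse 2 highest, with a 2.50-fold range. Per2 was read by 3 probe sets that disagree. The most intense, 1417602_at, had values of 8.25, 7.22 and 9.25, the widest range of the clock probe sets above background at 4.08-fold, with mouse 2 lowest and mouse 3 highest. Probe set 1457350_at (3.34, 4.81 and 4.57) placed mouse 2 highest instead. Probe set 1417603_at (2.91, 2.98 and 4.64) placed mouse 3 highest and lay 0.33 and 0.05 above the floor in mice 1 and 2.

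Per3 had 6 probe sets, of which 4 exceeded the floor in all mice, and mouse 2 was lowest in all 4. Probe set 1421087_at, the most intense, had values of 9.07, 7.93 and 9.28 in mice 1, 2 and 3, a 2.55-fold range. The values were 5.35, 5.28 and 6.10 for 1442243_at and 5.61, 5.33 and 5.68 for 1458176_at, and both were highest in mouse 3. Probe set 1441445_at (5.004, 4.11 and 4.23) was highest in mouse 1. The other 2 Per3 probe sets, 1460662_at and 1421086_at, lay below the floor on every array, between 1.93 and 2.55.

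Of the cryptochromes, the other inhibitors of the activator, Cry1 varied and Cry2 did not exceed a 1.09-fold range. Cry1 had values of 8.65, 7.12 and 8.86 in mice 1, 2 and 3, so that mouse 2 lay apart at the low end and the range was 3.33-fold. Cry2 had values of 7.07, 7.04 and 6.95 (mean 7.02 ± 0.06, SD, n = 3). The Cry2 SD exceeded that of 13.0% of all probe sets above background, and the Cry1 SD that of 98.7% of them.

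Nr1d1, the repressor of Arntl, was read by 1 dim probe set, with values of 3.49, 3.77 and 3.33 in mice 1, 2 and 3, at most 0.90 above the floor and with a 1.36-fold range. Dbp, the output gene of the loop, was read by 2 probe sets that gave the same order of mice. Probe set 1438211_s_at had values of 12.94, 12.41 and 12.44, and 1418174_at had values of 10.92, 10.01 and 10.10. In both, mouse 1 was highest, and mice 2 and 3 were close, differing by 0.03 and 0.09 (mouse 3 minus mouse 2), below the median SD of all probe sets above background (0.17). The ranges were 1.44-fold and 1.88-fold. The suffix of 1438211_s_at marks probes that can match transcripts of more than 1 gene. In the reference gene table (GRCm38.p6), Dbp overlaps Sphk2, Nr1d1 overlaps Thra and Per3 overlaps Uts2, and the part of these neighbours in the signals was not tested.

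Arntl and Dbp differed in opposite directions in all 3 pairs of mice. Mouse 2 minus mouse 1 was 1.75 for Arntl and -0.52 and -0.91 for the 2 Dbp probe sets. Mouse 3 minus mouse 1 was 0.93 for Arntl and -0.50 and -0.83 for Dbp. Mouse 3 minus mouse 2 was -0.82 for Arntl and 0.03 and 0.09 for Dbp, so this pair is opposite in sign with a Dbp difference that is small against the spread of most probe sets. The larger differences are those with mouse 1, where Arntl was lowest and Dbp highest. With 3 mice no correlation is given. Of all 18434 probe sets above background, 16% also opposed Arntl in all 3 pairs, as did 3 of the 18 clock probe sets (both of Dbp and 1441445_at of Per3). This share is near the background, so the opposite order alone does not set the clock probe sets apart.

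Promoter windows are shown for Arntl and Dbp, whose opposite order was examined, and for Per1, Per3 and Cry1, the other genes with a window whose main probe set (the one with the highest mean) had a 2-fold range. The RefSeq promoter windows (GRCm38.p6) span 250 bases before to 50 bases after a start. They were available for 9 of the 10 genes, not Per2. Capitals mark matches, on either strand, to the E-box CACGTG, the E-box variant CACGTT, the D-box TTATGNAA and the ROR half-site AGGTCA. No matches overlapped in the windows printed.
Arntl promoter, chr7:113207261-113207560, plus strand: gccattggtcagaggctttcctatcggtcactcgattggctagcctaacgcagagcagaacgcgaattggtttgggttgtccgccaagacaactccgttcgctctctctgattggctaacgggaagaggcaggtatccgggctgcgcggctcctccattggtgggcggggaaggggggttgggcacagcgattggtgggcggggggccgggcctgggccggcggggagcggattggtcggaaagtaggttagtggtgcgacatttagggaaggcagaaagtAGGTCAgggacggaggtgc
Dbp promoter, chr7:45704997-45705296, plus strand: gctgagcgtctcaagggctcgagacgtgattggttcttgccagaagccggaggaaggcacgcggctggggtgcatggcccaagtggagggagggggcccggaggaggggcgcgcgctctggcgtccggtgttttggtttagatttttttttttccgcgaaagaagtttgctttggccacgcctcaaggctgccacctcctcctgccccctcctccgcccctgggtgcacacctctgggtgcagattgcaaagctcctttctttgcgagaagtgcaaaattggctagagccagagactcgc
Per1 promoter, chr11:69098699-69098998, plus strand: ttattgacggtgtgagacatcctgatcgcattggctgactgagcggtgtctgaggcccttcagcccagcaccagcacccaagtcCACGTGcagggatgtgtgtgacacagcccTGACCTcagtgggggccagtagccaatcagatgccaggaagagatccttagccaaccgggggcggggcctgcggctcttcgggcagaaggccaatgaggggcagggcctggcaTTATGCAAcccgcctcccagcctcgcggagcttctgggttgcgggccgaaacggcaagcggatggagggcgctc
Per3 promoter, chr4:151044616-151044915, minus strand: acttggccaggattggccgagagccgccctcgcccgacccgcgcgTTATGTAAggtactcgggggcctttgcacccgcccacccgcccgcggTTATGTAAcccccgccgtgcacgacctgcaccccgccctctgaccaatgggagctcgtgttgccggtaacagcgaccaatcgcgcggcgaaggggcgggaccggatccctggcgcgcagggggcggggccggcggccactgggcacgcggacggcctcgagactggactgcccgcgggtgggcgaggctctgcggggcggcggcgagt
Cry1 promoter, chr10:85185005-85185304, minus strand: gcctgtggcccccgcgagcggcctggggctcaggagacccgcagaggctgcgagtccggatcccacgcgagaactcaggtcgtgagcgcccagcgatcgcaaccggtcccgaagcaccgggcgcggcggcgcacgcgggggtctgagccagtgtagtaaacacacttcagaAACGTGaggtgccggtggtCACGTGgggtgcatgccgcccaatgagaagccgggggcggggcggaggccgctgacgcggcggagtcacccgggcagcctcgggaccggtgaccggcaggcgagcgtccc

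Per3 held 2 D-box matches, which begin 205 and 158 bases before its start. Per1 held 1 E-box match (166 bases before the start), 1 ROR half-site (137 bases before) and 1 D-box match (24 bases before). Cry1 held 1 E-box match 60 bases before its start and 1 match to the variant 79 bases before. The window of Arntl held a ROR half-site at position 32 after the start, and the Dbp window held none of the 4 motifs. Arntl and Per1 have 2 windows each, and in both the one not printed held none. Of 3 Clock windows, not printed, 1 held a ROR half-site. Over the 9 genes with a window, the E-box was found in 2, where 8.09% of 27025 genes hold it in a window of the same length. The variant was found in 3 (5.44% of genes), the D-box in 2 (3.99%) and the half-site in 3 (18.1%). These matches are a description of letters in a window, not binding sites.

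The 18 clock probe sets above background fell into 6 orders of the mice, and the 2 orders with most of them have mouse 2 at opposite ends. Arntl, Per1, 2 Clock probe sets and Per2 1457350_at followed the order 1, 3, 2 from low to high (5 of 18, against 14.2% of all probe sets above background). The main probe sets of Per2, Per3 and Cry1, with 2 further probe sets of Per3, followed the order 2, 1, 3 (5 of 18, against 18%). Dbp and Per3 1441445_at followed 2, 3, 1 (3 of 18, against 16%), and Nr1d1 and the other 2 Clock probe sets followed 3, 1, 2 (3 of 18, against 13.9%). Mouse 2 was thus the highest for 8 of the 18 and the lowest for another 8, where 29.2% of all probe sets were highest and 35.1% lowest in that mouse.

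**Figure D2:**
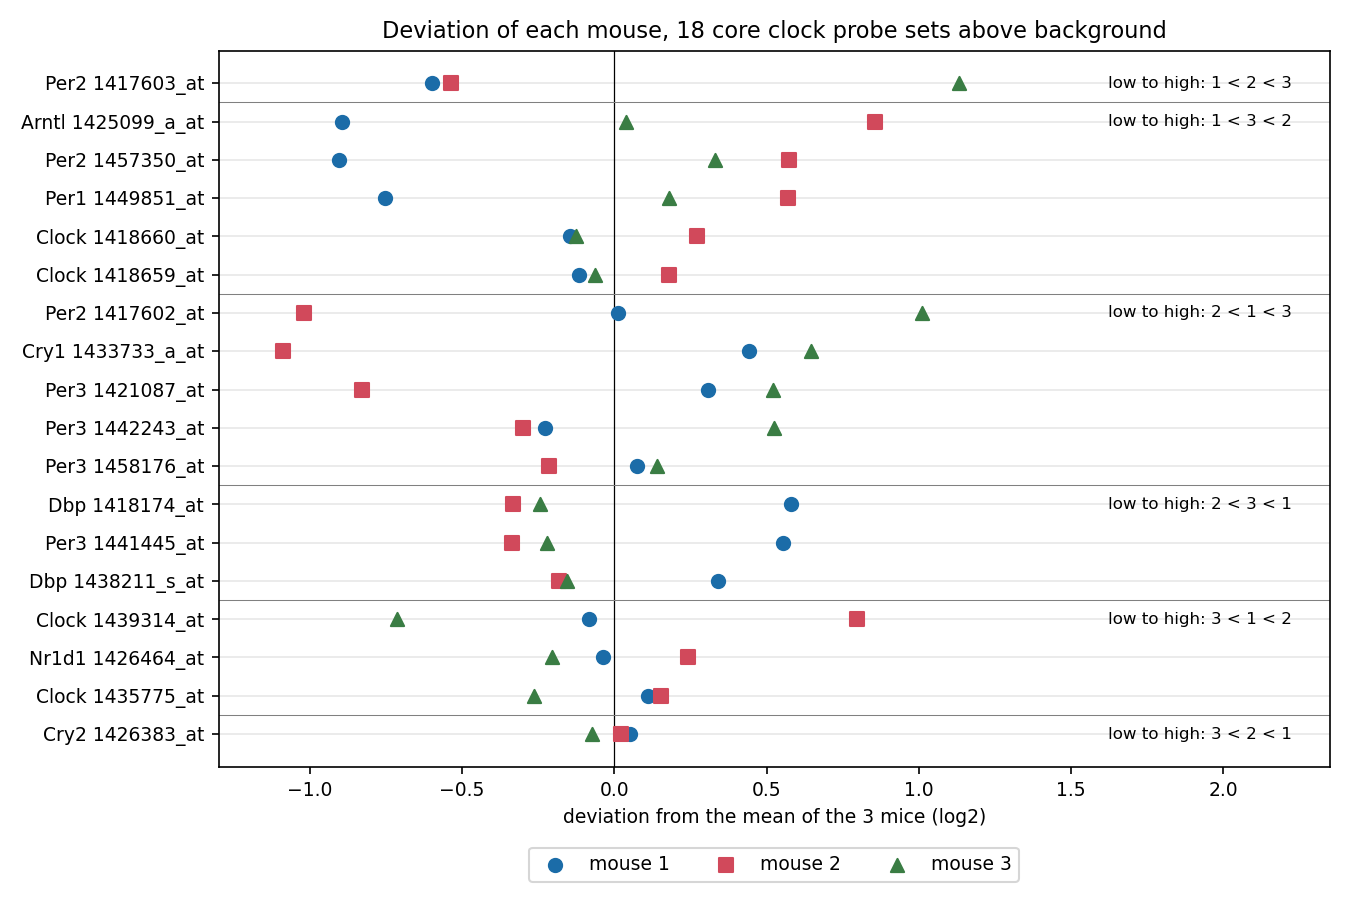
Deviation of each mouse from the mean of the 3 mice (horizontal axis, log2) for the 18 core clock probe sets above background, 1 point per mouse, with rows grouped by the order of the mice from low to high. Mouse 2 lies at the right for Arntl, Per1 and Clock and at the left for Cry1, Per3, Dbp and Per2 1417602_at.

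The spread between mice was wide for several of the clock genes, a list chosen with earlier results of these data known. The shares of all probe sets beside it are therefore a description, not an independent comparison. A 2-fold range was found for 8 of the 18 probe sets (6 genes), where 5.89% of all probe sets above background had one. These were Arntl 1425099_a_at, Clock 1439314_at, Per1, all 3 of Per2, Per3 1421087_at and Cry1. Nearest to the threshold were Per1 above it (2.50-fold) and Dbp 1418174_at below it (1.88-fold). With mouse 2 left out, 2 of 18 had a 2-fold range, both of Per2, against 3.03% of all probe sets above background in the other mice. With mouse 1 left out 5 of 18 did, against 2.96%. With 1 probe set per gene, the one with the highest mean, 5 of 9 genes had a 2-fold range (Arntl, Per1, Per2, Per3 and Cry1), against 5.94% of all genes above background. Under a stricter floor, the 99th percentile of the receptor probe sets, 4 of 13 probe sets did, against 5.23% of all that passed it, and Arntl and Clock 1439314_at no longer entered.

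The median SD was 0.49 over the 18 clock probe sets and 0.17 over all probe sets above background. The median SD of probe sets of like level, in 20 bins, was 0.15 in the lowest bin, reached 0.25 in the fifth (mean level 4.51) and was 0.10 in the highest. Of the 18 clock probe sets, 9 (7 genes, Dbp included) lay above the 95th percentile of SD in their bin. Excess variance was tested with limma, which set each variance over the 3 mice against the distribution fitted across all 18434 probe sets with a trend on level. After Benjamini-Hochberg adjustment none of the clock probe sets, and 0 probe sets in all, passed the threshold of 0.05. The percentage called was 0. The smallest limma adjusted p of all probe sets was 0.458, the value of a Zbtb16 probe set with an 80.5-fold range. With 3 arrays the test thus passed over even such a range, and the absence of calls does not show a small spread. The smallest adjusted p among the clock probe sets was 0.829, for Per2 1417602_at and Cry1. Without adjustment 10 of the 18 (7 genes) were under 0.05, against 4.26% of all probe sets tested (786). These were both probe sets of Dbp and the 8 with a 2-fold range. The spread of the clock probe sets is therefore only described here, and no single member is called. The members were chosen with earlier results of these data known, so the shares of all probe sets are no independent yardstick.

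**Figure D3:**
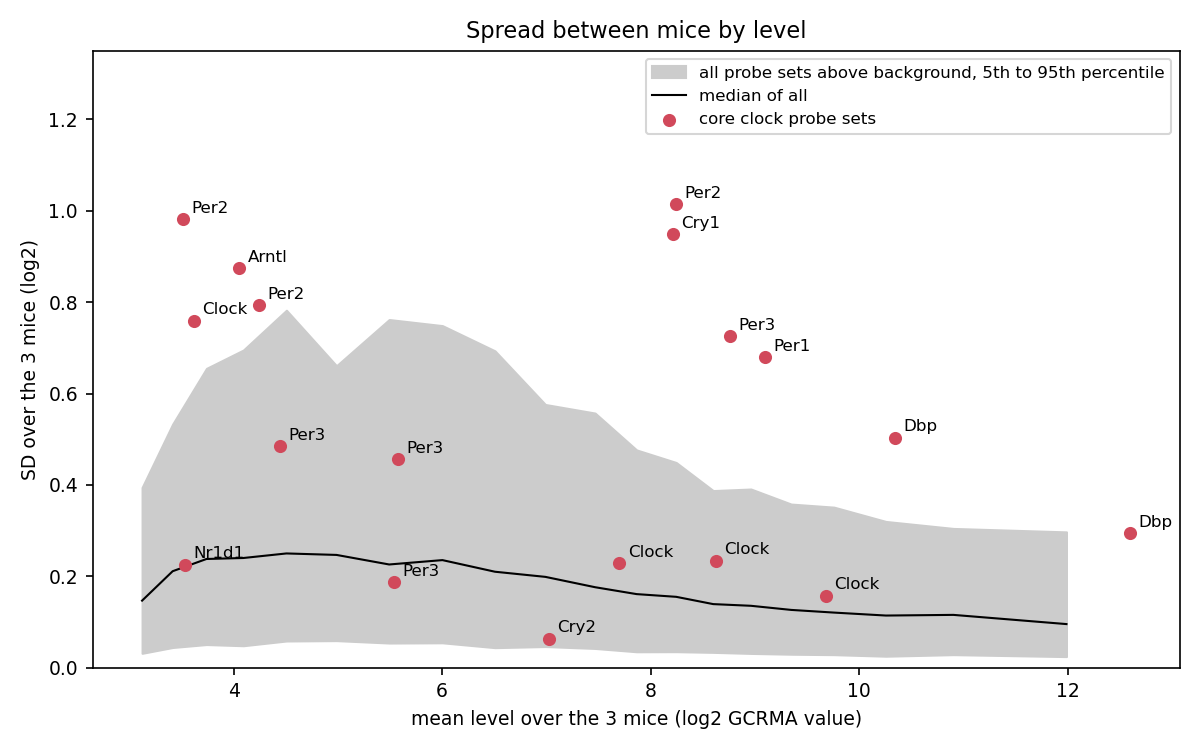
SD over the 3 mice (vertical axis, log2) against mean level (horizontal axis, log2 GCRMA value). Red points are the 18 core clock probe sets, the grey band spans the 5th to 95th percentile of all 18434 probe sets above background in 20 bins of level and the line is their median, and 9 red points lie above the 95th percentile of their bin.

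The other genes of the loop were counted in the same way. Of 20 further clock genes 18 had a probe set and 15 were above background in all mice. A 2-fold range was found for 3 of their 33 probe sets above background, against 5.89% of all, and 3 of 33 were under the unadjusted 0.05, against 4.26% of all. The E-box repressor gene Bhlhe40 (Dec1) had values of 9.48, 7.76 and 9.51 in mice 1, 2 and 3, so that mouse 2 lay apart at the low end, as it did for Cry1. The D-box repressor gene Nfil3 had values of 3.33, 4.05 and 5.41, with mouse 3 highest. Probe set 1458129_at of Rora, the activator at ROR elements, had values of 4.57, 4.08 and 5.59. The most intense Rora probe set had values of 10.09, 9.53 and 10.09, and mouse 2 was lowest in all 6 Rora probe sets above background.

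Tef and Hlf, the paralogs of Dbp, were also highest in mouse 1 by their main probe sets (those with the highest mean). The most intense Tef probe set had values of 10.07, 9.78 and 9.94 in mice 1, 2 and 3, and that of Hlf had values of 9.21, 9.07 and 9.10. Their ranges were small, 1.23-fold and 1.10-fold. Tef 1438033_at (5.47, 4.96 and 5.53), also above background, was highest in mouse 3 instead. Hlf 1434735_at (7.66, 7.53 and 7.37) was highest in mouse 1 but lowest in mouse 3, unlike Dbp. Nr1d2, the paralog of Nr1d1, had values of 12.66, 12.54 and 12.54, and Ciart, which encodes a repressor of the BMAL1 complex, had values of 3.92, 3.29 and 3.84. By their main probe sets, 6 of the 15 genes followed the same order of mice as Dbp (16% of all probe sets do), and none followed that of Arntl (14.2% of all). Some of the 6 orders rest on near ties, since mouse 3 minus mouse 1 was -0.0002 for Rora and -0.01 for Sirt1. Rora probe sets 1436325_at, 1436326_at and 1458129_at, also above background, were highest in mouse 3 instead. Bhlhe41 was below the floor in all mice.

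Genes whose pattern over the 3 mice was most like that of a member were found by the Euclidean distance between mean-centred log2 values, among 10597 other genes with 1 probe set each. Nearest to Arntl were Wfdc15b (6.94, 8.65 and 7.88 in mice 1, 2 and 3), Ranbp3l (3.06, 4.72 and 3.93) and Dnajb1 (9.49, 11.31 and 10.37), at distances of 0.04 to 0.09. Nearest to Per1 were Atat1, Slc40a1 and Ank3, nearest to Per2 were Ifit3, Cyp2s1 and Clec1b, and nearest to Per3 were Zscan12, Tnxb and AI429214. Cry1 had Amer1, Cys1 and Bhlhe40 as its nearest genes, the last at a distance of 0.15. Within a distance of 0.3 lay 29 genes for Arntl, 66 for Per1, 4 for Per2, 29 for Per3 and 7 for Cry1. For the members with small ranges such likeness is unspecific, with 1796 genes within that distance for Dbp, 2889 for Nr1d1, 4639 for Clock and 6649 for Cry2. The nearest were Bin3, Supt7l and 2610316D01Rik for Dbp, Pygb, Lhfpl2 and Map4k4 for Nr1d1, Atg14, Cdh2 and Dbt for Clock, and Rtel1, Creg1 and Gpd1l for Cry2.

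Markers of other cell types moved with some of these orders. The glomerular label was checked on podocyte genes, which were above background for 4 of 4 genes with a probe set, with a summed level of 15.16 to 15.29 (log2 of the sum), and none had a 2-fold range. By main probe sets mouse 3 was lowest for all 4, with 2 in the order 3, 1, 2 from low to high (13.9% of all probe sets) and 2 in the order 3, 2, 1 (17.1%). The second Podxl probe set (11.64, 11.18 and 11.35) followed the order of Dbp. A collecting duct list of 3 genes had none above background in all mice. Of 5 genes of the loop and distal tubule, 4 were above background in all mice, and all 4 followed the order of Arntl and Per1, from mouse 1 to mouse 3 to mouse 2. The fifth, Slc12a3, passed the floor in mice 2 and 3. The summed level of all 5 genes, Slc12a3 included, was 12.74, 13.95 and 13.37 in mice 1, 2 and 3. Umod, the uromodulin gene of the thick ascending limb, deviated from its mean by -0.56, 0.53 and 0.03 in mice 1, 2 and 3, and Slc12a1 by -0.78, 0.80 and -0.02, beside -0.89, 0.85 and 0.04 for Arntl and -0.75, 0.57 and 0.18 for Per1. The part of tubule RNA in the Arntl and Per1 values was not tested.

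All 6 proximal tubule genes followed the order 1, 2, 3 from low to high, with summed levels of 6.94, 7.89 and 10.29, an order that 1 of 18 clock probe sets shared (Per2 1417603_at) and 17.4% of all probe sets follow. The 3 leukocyte genes above background of 5 followed the reverse order, which 1 of 18 clock probe sets shared (Cry2) and 17.1% of all follow. Summed levels over all 5 leukocyte genes were 8.48, 7.37 and 6.17 in mice 1, 2 and 3. Cd68 and Cd3e, of macrophages and T cells, were below the floor in all mice. No gene of the loop and distal tubule, proximal tubule or leukocyte lists followed the order of Dbp or that of Cry1. Genes of other lists did. By main probe sets, mouse 1 was highest for all 4 genes of glomerular endothelium, as for Dbp, with summed levels of 14.66, 14.45 and 14.43. Of the 4, 1 (Ehd3, with values of 13.36, 13.26 and 13.30) followed the full order of Dbp. The second Ehd3 probe set (12.28, 12.30 and 12.37) was instead lowest in mouse 1 and highest in mouse 3. Mouse 1 was also highest for both erythroid genes with a probe set, with summed levels of 4.57, 4.19 and 4.24, and 1 of these (Slc4a1) followed the order of Dbp. Of 3 mesangium genes 2 (Pdgfrb and Gata3) followed the order of Cry1 by their main probe sets, with summed levels of 14.55, 14.52 and 14.54 for the list. The second Pdgfrb probe set (10.52, 10.26 and 10.51) followed the order of Dbp instead. No gene of these 3 further lists had a 2-fold range. The spiked bacterial and phage controls, 18 probe sets in all, were each highest in mouse 2, by a median deviation of 0.36 from the mean of the mice, with mouse 2 also highest for Arntl and Per1. The 3′ minus 5′ difference, which can reflect RNA quality, was 1.49, 1.81 and 2.05 for actin and 0.48, 1.08 and 0.92 for Gapdh in mice 1, 2 and 3. RNA integrity is given as above 8 for all 3 mice, and all RNA was amplified from the 3′ end. The Gapdh difference thus followed the order of Arntl and Per1, and the actin difference that of the proximal tubule genes. The part of these in the clock values was not tested.

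**Figure D4:**
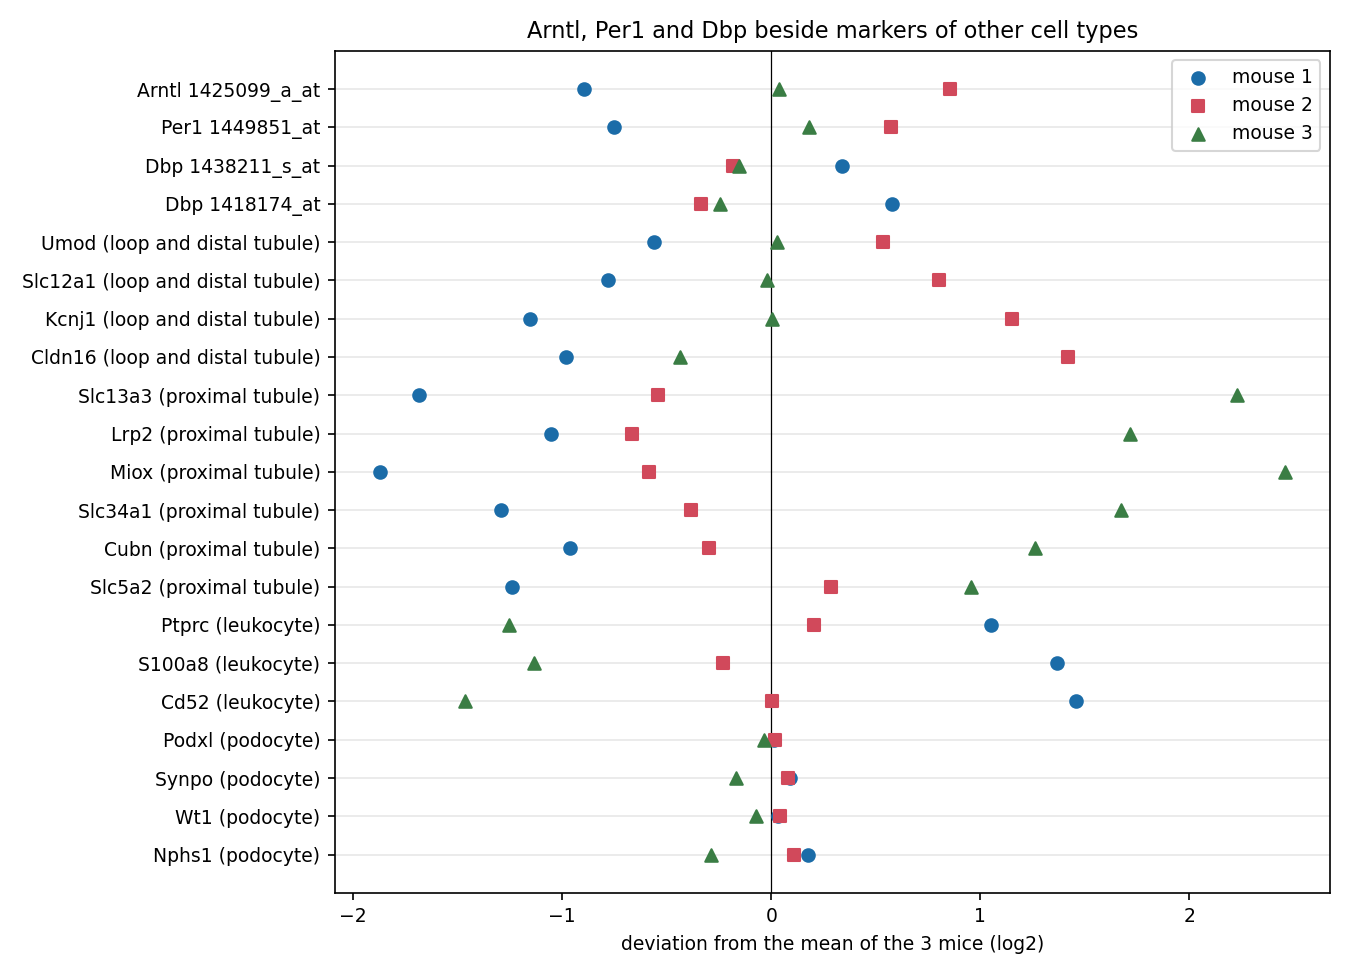
Deviation of each mouse from the mean of the 3 mice (horizontal axis, log2) for Arntl, Per1 and both Dbp probe sets and, below them, for the main probe set of marker genes of loop and distal tubule, proximal tubule, leukocytes and podocytes above background. Arntl and Per1 line up with Umod, Slc12a1, Kcnj1 and Cldn16 (mouse 1 left, mouse 2 right), and the Dbp points run the other way.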

How the data were processed

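Glomerular RNA of 3 FVB/NJ mice was amplified from the 3′ end, biotin-labelled and hybridised to 1 array per mouse, per the labels' protocols. The deposited table holds 1 log2 expression value per probe set and array, summarised with GCRMA per the submitters' processing notes. The log2 scale is an inference from their range (0.67 to 14.76), and the GCRMA version and the arrays normalised together are not given in the sources used here. Array medians were 2.82, 2.85 and 2.82. GCRMA leaves identical values on pairs of arrays for 2.18% to 2.49% of probe sets. Gene names came from the platform annotation, in which 34958 had 1 gene symbol, 932 had several and were not used, and 9211 had none listed. All per-sample columns were used.

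The floor was the 95th percentile of receptor probe sets per array. Variances were tested with limma 3.58.1 in R 4.3.3 (robust fit, trend on level, one-sided upper tail) and adjusted by Benjamini-Hochberg over all 18434 probe sets above the floor. The test was also run on simulated data with known spread, and its detection rate there is not given here. A 2-fold range is a difference of at least 1 between the highest and the lowest mouse. Precision is limited by 3 arrays and by signal over background. A p-value here sets the variance of a probe set between these samples against the distribution fitted across all probe sets tested. Named were all clock probe sets, 8 other clock genes fixed by name with any that had a 2-fold range or excess variance, and the 3 genes nearest in pattern to each member. Members and lists were chosen with earlier results of these data known. Alternatives covered scaling, the floor, the probe sets used, the variance prior and each mouse left out.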

Additional observations from a re-analysis of the deposited data

How the results depend on the processing

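Of the 23 clock probe sets, 18 were above background, and 13 were with the floor at the 99th percentile, 17 without probe sets ending in _s_at or _x_at, and 18 under the other alternatives run. The count with a 2-fold range was 8 of 18. It was 4 at the stricter floor and 4 with the mean of the probe sets of a gene (5.52% of all genes), where fewer probe sets or genes enter, 5 with 1 probe set per gene, 9 with no floor (3.74% of all probe sets), and 2 to 6 with 1 mouse left out (2.81% to 3.03% of all). Centring and quantile normalisation left it at 8. None of the clock probe sets passed the limma test after adjustment under any setting run, and 5 to 11 of them were under the unadjusted 0.05. No other probe set passed after adjustment in these settings either, so this result does not tell the clock probe sets from the rest. The opposition of Arntl and Dbp held in 100% of mouse pairs after centring, after quantile normalisation and with the other Dbp probe set. That probe set is also the one used without probe sets ending in _s_at. Leaving out a mouse or the floor reuses the same values and could not change a sign, so those settings are no check. The opposition has no value at the stricter floor, which Arntl did not pass in mouse 1, and the second Arntl probe set was below background. No paired analysis was possible because the samples form 1 group. With 3 arrays, and Arntl, Nr1d1 and Npas2 near the floor, low values are the least certain.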

Other observations

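Genes downstream of the clock and of glucocorticoid signalling varied between the same mice. Of 9 clock output genes 7 had a probe set and were above background, and 5 of their 12 probe sets had a 2-fold range, against 5.89% of all probe sets. Usp2, which encodes a deubiquitinase under clock control, had values of 6.37, 7.36 and 8.21 in mice 1, 2 and 3, the order of the proximal tubule genes. Wee1, which encodes a mitotic kinase under clock control, had values of 6.56, 5.82 and 7.44, the order of Cry1 and of the main Per2 probe set. Noct, which encodes nocturnin, had values of 8.21, 9.39 and 8.62, the order of Arntl and Per1.

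Of 6 glucocorticoid-responsive genes, all above background, 3 had a 2-fold range by their main probe set (Fkbp5, Zbtb16 and Per1), against 5.94% of all genes above background. Per1 was already counted among the core clock genes, so this count is not separate from theirs. Fkbp5, which encodes a co-chaperone of the glucocorticoid receptor, had values of 8.27, 7.75 and 10.12 in mice 1, 2 and 3. The main probe set of Zbtb16 had values of 6.64, 4.54 and 10.87. Both had mouse 2 lowest and mouse 3 highest, as did the main probe sets of Per2, Per3 and Cry1, an order that 18% of all probe sets above background follow. Per1, also a glucocorticoid-responsive gene, followed the order of Arntl instead. After adjustment by limma none of these probe sets passed. Main probe sets were taken by the highest mean, and the output and glucocorticoid lists were set with earlier results of these data known.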
